A study of Sus scrofa with 9 samples.

Results

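The genes of fatty acid oxidation, synthesis and desaturation were followed in embryonic longissimus dorsi, the back muscle that becomes the loin, of Tibetan, Wujin and Large White pigs. Members were the entries whose identifier maps to a pig symbol of the acyl-CoA dehydrogenase, synthetase, thioesterase and oxidase, carnitine palmitoyltransferase, beta-oxidation, electron transfer flavoprotein, desaturase, elongase, glycerolipid-assembly, perilipin and fatty-acid-binding families, or to ACLY, ACACA, ACACB, FASN, LPL, LIPE or CD36, leaving out ACADVL and PLIN4. Of 19643 entries, 11179 carry a symbol and 65 are members. By role, 30 members belong to breakdown, 21 to synthesis and 13 to uptake and handling. The other member, ETF1, was taken by the first letters of its symbol and is a translation termination factor.

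The groups were 3 Tibetan, 3 Wujin and 3 Large White libraries, labelled by breed and as embryonic, with no treatment, day of gestation, sex or litter named. Tibetan and Wujin are indigenous Chinese breeds and Large White is the breed they were set against. The labels do not say that the libraries of a breed came from separate embryos, so p-values measure the spread between these libraries, which may be technical. Values in every library are given in the order Tibetan 1, 2 and 3, then Wujin 1, a and b, then Large White 1, 2 and 3. Wujin a and b stand for columns that share a header. Levels are FPKM, fragments scaled by transcript length and library size, so levels of different genes can be set side by side.

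Fatty acids are activated to acyl-CoA, passed into mitochondria on carnitine, and shortened in a spiral of dehydrogenation, hydration, dehydrogenation and thiolysis, and the electrons of the first step reach the respiratory chain through the electron transfer flavoprotein. Synthesis runs the other way in the cytosol, where citrate is cut to acetyl-CoA, carboxylated and built into palmitate, which elongases and desaturases modify and acyltransferases join to glycerol. In skeletal muscle, oxidation of fatty acids serves mainly the fibres rich in mitochondria, and droplets of stored lipid lie inside fibres as well as in the fat cells between them.

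The muscle label held in all libraries, with MYL1, a myosin light chain, at 6548, 6000 and 6774 FPKM in Tibetan, 2491, 3123 and 2946 FPKM in Wujin and 2458, 2097 and 2015 FPKM in Large White libraries. Relative depth, read from the steps between low values, was 0.997 to 1.23 times that of Large White 1, and the number of fragments behind a value is unknown. The 10 most abundant entries took 32.6 to 40.8% of all FPKM in Tibetan, 22.3 to 22.8% in Wujin libraries, and 18.8 to 25.0% in Large White libraries, and the median change of the 13106 entries tested was -0.77 on the log2 scale for Tibetan against Large White, -0.20 for Wujin against Large White and -0.55 for Tibetan against Wujin. Changes below are therefore given relative to that median ("relative log2 change", tested breed minus the other, on the log2(FPKM + 1) scale, with its SE), while the adjusted p, from limma with Benjamini-Hochberg adjustment over all entries tested, belongs to the change before the median is taken off. A member is called at an adjusted p under 0.05, and the number called after median-ratio scaling, which sets the median change near 0, is given with the counts of breakdown, synthesis, and uptake and handling members. Sums of markers of other cell types moved with breed too, though single markers could go another way. Of 8 genes of fibroblasts and connective tissue, 7 were matched and summed to 321 to 359 FPKM in Tibetan libraries, 3065 to 5617 FPKM in Wujin libraries and 5357 to 5994 FPKM in Large White libraries. Of 11 adipocyte genes, 7 were matched and summed to 690 to 902 FPKM in Tibetan libraries, 53.9 to 82.6 FPKM in Wujin libraries and 22.0 to 30.3 FPKM in Large White libraries, nearly all of it GPD1 and CFD, while PLIN1 was at most 2.18 FPKM and listed at 0 in the 3 Large White libraries. The matched genes of endothelium (4 of 7) summed to 32.0 to 43.7 FPKM in Tibetan libraries, 52.6 to 82.2 FPKM in Wujin libraries, and 84.1 to 88.7 FPKM in Large White libraries, and those of red cells (5 of 6) to 149 to 580 FPKM, 1470 to 3838 FPKM and 1931 to 3744 FPKM in the same order. Those of macrophages and leukocytes (4 of 6) summed to 10.0 to 17.7 FPKM, 8.31 to 17.9 FPKM and 18.4 to 29.9 FPKM, and those of liver and plasma (5 of 6) to 13.8 to 33.2 FPKM, 66.1 to 83.3 FPKM and 65.5 to 144 FPKM. Muscle fibre genes (5 of 10) summed to 10836 to 53580 FPKM, 10101 to 11548 FPKM and 6348 to 7795 FPKM. ACTA1 was listed at 0 in Tibetan 2 against 37424 and 41829 FPKM in Tibetan 1 and 3, which may be a failed estimate, as may other values listed at 0. Without ACTA1 the fibre genes summed to 10836 to 11750 FPKM in Tibetan libraries, 4393 to 4710 FPKM in Wujin libraries and 3140 to 3728 FPKM in Large White libraries. CKMT2 was at 610 to 855 FPKM in Tibetan, 6.07 to 10.1 FPKM in Wujin and 12.3 to 15.6 FPKM in Large White libraries. CASQ1 was at 974 to 1536 FPKM, 82.5 to 127 FPKM and 48.2 to 56.8 FPKM in the same order. MYL1 and DES differed less. With no day of gestation named, stage and breed cannot be told apart. The part of these cell types in the results was not tested. In bulk muscle, fewer cells of a type and less RNA per cell cannot be told apart.

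Breakdown and synthesis moved apart in Tibetan muscle. The breakdown members summed to 886, 963 and 820 FPKM in Tibetan, 445, 439 and 432 FPKM in Wujin and 495, 457 and 461 FPKM in Large White libraries. The synthesis members summed to 72.6, 65.9 and 91.4 FPKM in Tibetan, 105, 157 and 158 FPKM in Wujin and 165, 179 and 181 FPKM in Large White libraries. Breakdown thus stood 12.2, 14.6 and 8.97 times above synthesis in Tibetan, 4.26, 2.79 and 2.73 times in Wujin and 2.99, 2.55 and 2.54 times in Large White libraries, a ratio taken within each library that no rescaling of a library changes. The Tibetan libraries lay above all others in this ratio, and Wujin 1 lay above the rest of the Wujin and Large White libraries.

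**Figure D1:**
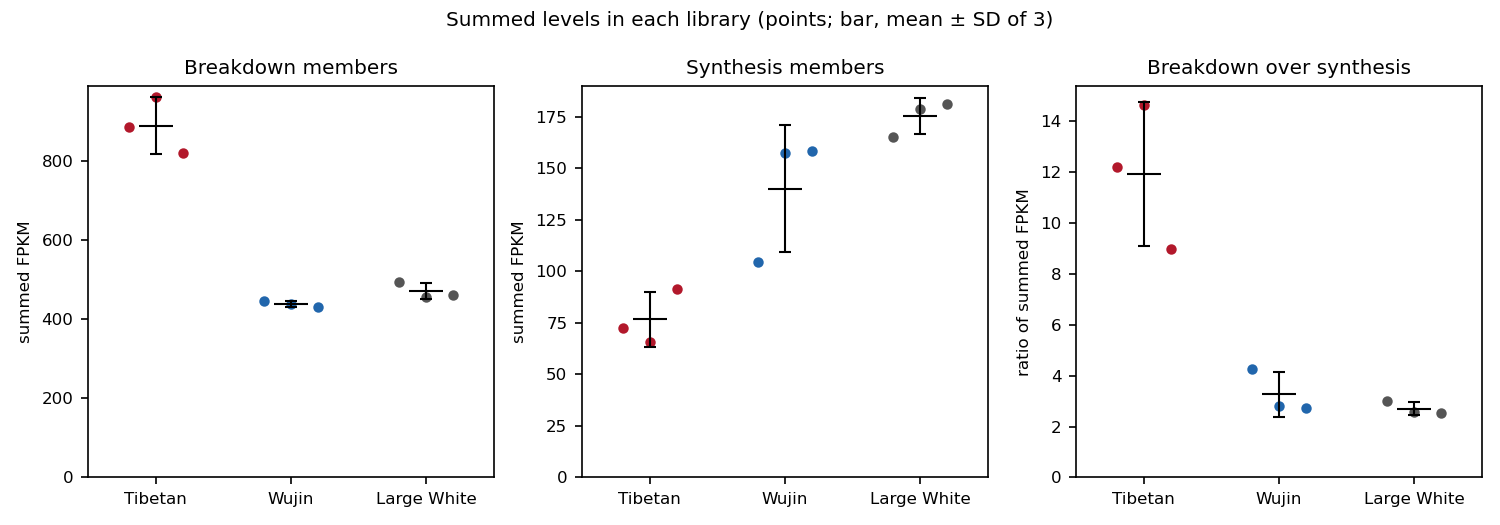
Summed FPKM of the 30 breakdown members, of the 21 synthesis members, and the ratio of these sums in each library, by breed; points are libraries and the bar is the mean ± SD of 3. The Tibetan libraries sit highest for breakdown, lowest for synthesis and, at 8.97 to 14.6, highest for the ratio.

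Of the 29 breakdown members tested, 15 rose, 4 fell and 10 were not called in Tibetan against Large White muscle, where 13.0% of all entries tested were called higher and 63.2% lower. Their median relative log2 change was 1.17, by construction 0 over all entries. All 29 lay above the median of all entries, with CPT1A the lowest at 0.03. After median-ratio scaling 25 breakdown members were called higher, 0 lower and 4 were not called, with 32.4% of all entries called higher and 33.0% lower. Of the 16 synthesis members tested, 2 rose, 11 fell and 3 were not called, with a median relative log2 change of -0.48, and after median-ratio scaling 3 were higher and 8 lower. The 11 of 16 that fell were near the 63.2% of all entries called lower. That count alone does not set the synthesis members apart. Over all 56 members tested, 15 of the 18 not called were called higher after that scaling, and 8 of the 18 that fell were no longer called. Without Large White 3, 2 breakdown members were lower, and without Tibetan 3, Large White 1 or Large White 2, 1 synthesis member was higher. The fibroblast and connective tissue genes were low in the libraries where synthesis members were low, and their part in the counts was not tested.

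**Figure D2:**
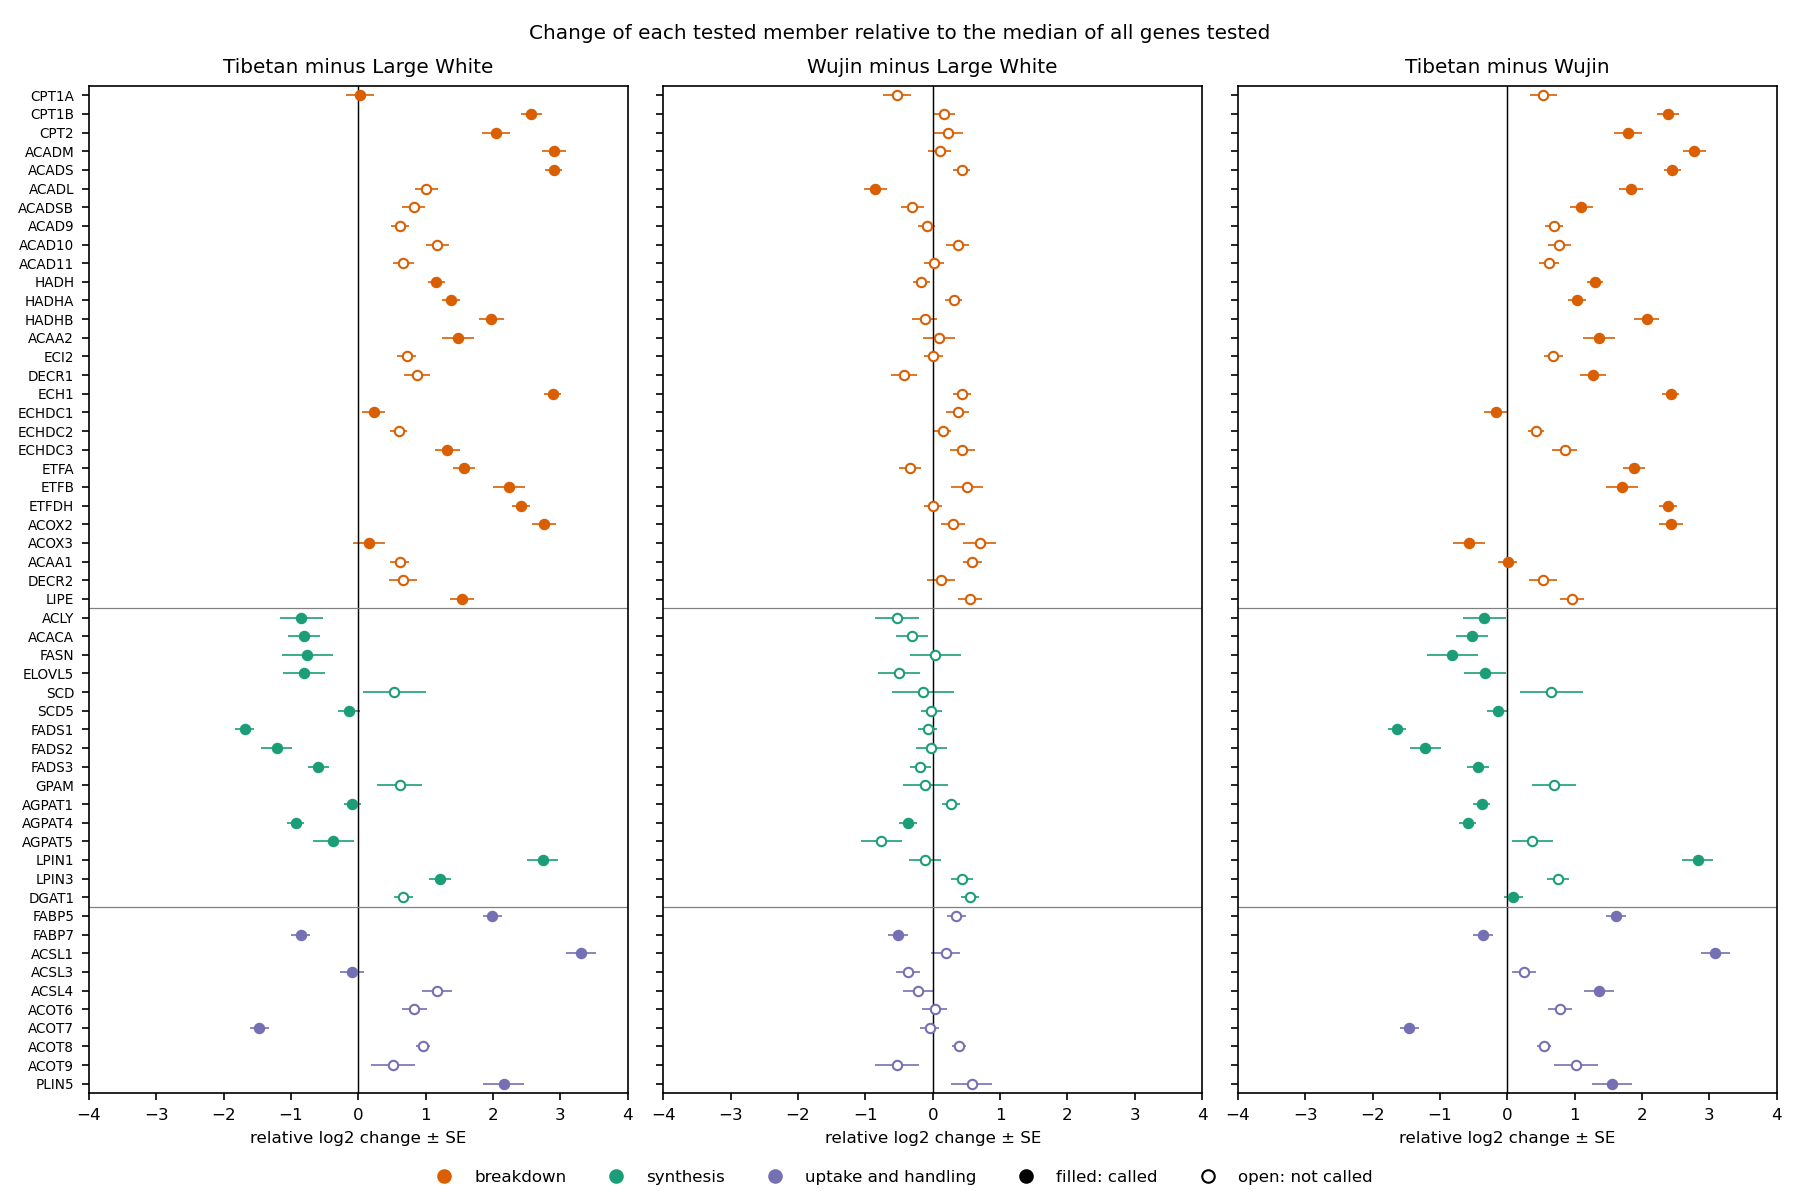
Relative log2 change with its SE of the tested lipid members named on the axis for the 3 pairs of breeds, the first named minus the second, grouped as breakdown, synthesis, and uptake and handling; filled points were called, and ETF1 is not drawn. In the Tibetan and Large White panel the breakdown members drawn lie to the right of 0, while 11 of the 16 synthesis members lie to the left. Between Wujin and Large White 3 points are filled.

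At the carnitine step the muscle enzyme made up more of the total in Tibetan libraries. CPT1B (ENSSSCG00000022364), the muscle form of the outer-membrane palmitoyltransferase that admits long-chain acyl groups, had 48.9, 43.3 and 35.4 FPKM in Tibetan, 9.27, 12.6 and 11.8 FPKM in Wujin and 10.2, 11.3 and 12.8 FPKM in Large White libraries. The Tibetan libraries stood clear of the others, which overlapped each other, and the relative log2 change of CPT1B was 2.57 ± 0.16 against Large White (adjusted p = 8.67e-06) and 2.38 ± 0.16 against Wujin (adjusted p = 1.01e-05). CPT2, which returns the acyl group to coenzyme A inside, had 12.7, 19.5 and 9.56 FPKM in Tibetan, 4.80, 5.18 and 5.32 FPKM in Wujin and 4.82, 4.96 and 5.06 FPKM in Large White libraries. Every Tibetan value was above the rest, although they spread widely among themselves, and the relative log2 change against Large White was 2.05 ± 0.21 (adjusted p = 0.000421).

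CPT1A, the form best known from liver, had 1.90, 3.23 and 3.74 FPKM in Tibetan, 2.31, 3.27 and 3.25 FPKM in Wujin and 5.16, 6.57 and 4.88 FPKM in Large White libraries. It fell in Tibetan against Large White muscle (adjusted p = 0.00813), but its relative log2 change was 0.03 ± 0.20 and its direction turned after median-ratio scaling and quantile normalization. CPT1B accordingly made up 96.2, 93.0 and 89.8% of the summed CPT1 level in Tibetan, 75.2, 73.6 and 73.8% in Wujin and 63.0, 60.0 and 69.2% in Large White libraries, and the 3 breeds did not overlap. CPT1C, the form best known from neurons, was below the filter, at 0.0244 to 0.268 FPKM in Tibetan libraries, 0.746 to 1.23 FPKM in Wujin libraries and 0.848 to 0.940 FPKM in Large White libraries.

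The acyl-CoA dehydrogenases, which open the spiral and are specialised by chain length, differed in how far they lay above the median change of all entries. Of 7 tested, 2 rose and 0 fell in Tibetan against Large White by limma, at an unadjusted p under 0.05 the counts were 3 and 0, and after median-ratio scaling 7 were higher. The shares of all entries called higher and lower were 13.0% and 63.2%, and 32.4% and 33.0% after that scaling. ACADM, the medium-chain enzyme, had 60.4, 62.4 and 46.5 FPKM in Tibetan, 8.55, 13.0 and 12.5 FPKM in Wujin and 11.5, 12.2 and 12.3 FPKM in Large White libraries. It rose against Large White, with a relative log2 change of 2.90 ± 0.17 (adjusted p = 4.70e-06). ACADS, the short-chain enzyme, had 47.7, 47.0 and 51.2 FPKM in Tibetan, 12.9, 12.5 and 11.6 FPKM in Wujin and 12.1, 8.82 and 10.4 FPKM in Large White libraries. Against Large White it rose, by a relative log2 change of 2.90 ± 0.13 (adjusted p = 7.49e-07). For both enzymes the lowest Tibetan library was above 3 times the level of any other library.

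ACADL, the long-chain enzyme, followed another order. It had 21.0, 22.9 and 16.7 FPKM in Tibetan, 6.43, 6.87 and 9.93 FPKM in Wujin and 18.2, 16.9 and 15.4 FPKM in Large White libraries. Tibetan and Large White libraries overlapped, with a relative log2 change of 1.01 ± 0.17 that was not called (adjusted p = 0.235) and was called higher after median-ratio scaling (adjusted p = 0.000301). The Wujin libraries lay below both, with a relative log2 change of 1.84 ± 0.17 for Tibetan against Wujin (adjusted p = 0.000164). ACADSB, which acts on short branched chains from isoleucine, was in the same order, at 14.2 to 19.0 FPKM in Tibetan libraries, 8.39 to 12.4 FPKM in Wujin libraries and 14.8 to 16.8 FPKM in Large White libraries, and rose in Tibetan against Wujin (adjusted p = 0.0154; 0.0529 when Tibetan 2 was left out). Against Large White it was called higher after median-ratio scaling (adjusted p = 0.000434) and not before it (adjusted p = 0.791). ACAD9, which also serves assembly of respiratory complex I, and the less studied ACAD10 and ACAD11 had relative log2 changes of 0.62 ± 0.13, 1.17 ± 0.17 and 0.67 ± 0.15 in Tibetan against Large White and were called in no comparison before scaling. After median-ratio scaling all 3 were called higher in Tibetan against Large White (adjusted p of 0.00171, 0.000655 and 0.00277) and against Wujin (0.000976, 0.00532 and 0.00258).

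**Figure D3:**
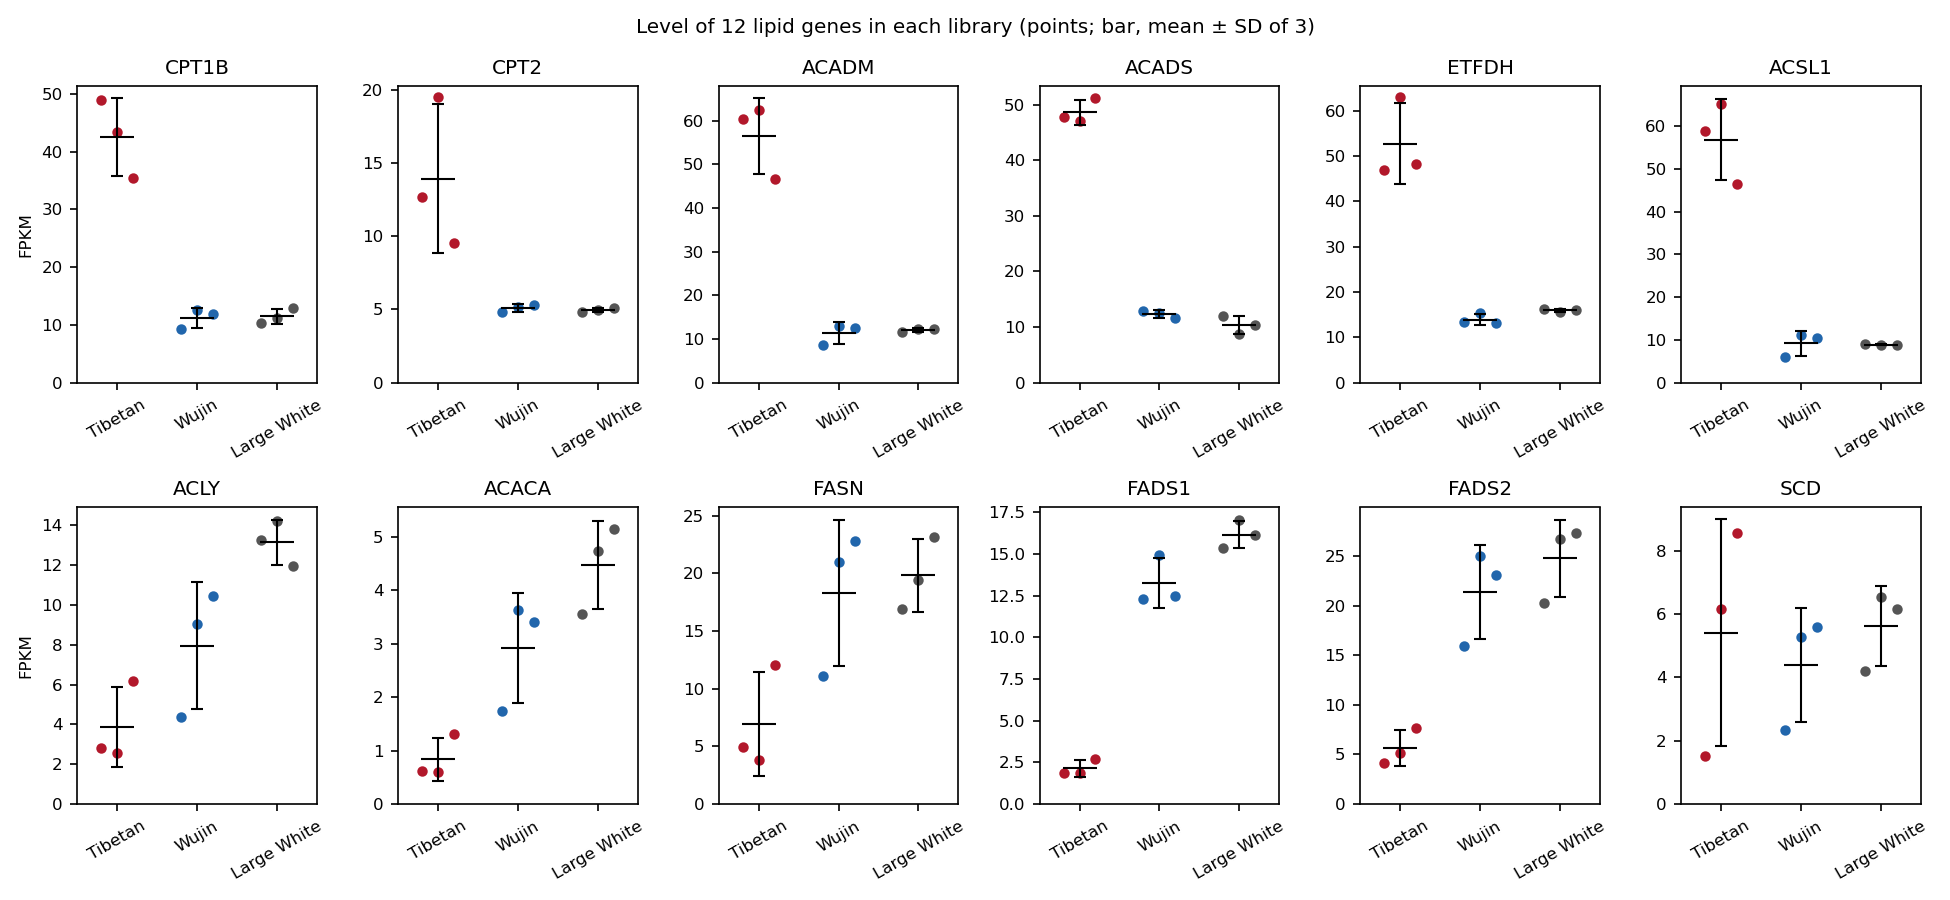
Level in FPKM of 6 genes of breakdown and activation (top row) and 6 of synthesis (bottom row) in each library, by breed, with the mean ± SD of 3; each panel has its own linear axis from 0. The Tibetan libraries lie above all others in the top row and below all others for FADS1 and FADS2, while SCD overlaps across breeds.

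Of 10 members grouped with the later spiral steps, 6 rose, 1 fell and 3 were not called in Tibetan against Large White. After median-ratio scaling 9 were higher and 0 lower. All entries gave 13.0% higher and 63.2% lower before scaling, and 32.4% and 33.0% after it. The group also counts ECHDC1, ECHDC2 and ECHDC3, which were not assigned to a step. ECH1, a dienoyl-CoA isomerase for unsaturated chains, had 81.0, 69.0 and 62.0 FPKM in Tibetan, 17.1, 19.3 and 18.8 FPKM in Wujin and 14.3, 17.1 and 15.1 FPKM in Large White libraries. Relative to all genes it changed by 2.88 ± 0.13 on the log2 scale against Large White (adjusted p = 9.35e-07). DECR1, the mitochondrial dienoyl-CoA reductase of the same branch, had 14.5, 11.8 and 12.1 FPKM in Tibetan, 5.02, 8.47 and 9.21 FPKM in Wujin and 11.4, 12.5 and 11.7 FPKM in Large White libraries. DECR1 overlapped between Tibetan and Large White libraries, where its relative log2 change of 0.87 ± 0.19 was not called (adjusted p = 0.654) but was called higher after median-ratio scaling (adjusted p = 0.000217). It rose in Tibetan against Wujin (adjusted p = 0.00862). ECI2, an isomerase that shifts double bonds, was at 16.2 to 24.1 FPKM over all 9 libraries. ECHDC2, a hydratase-like protein, was at 14.4 to 19.2 FPKM in Tibetan libraries, 16.9 to 18.4 FPKM in Wujin libraries, and 17.7 to 19.1 FPKM in Large White libraries. Neither was called before scaling, and after median-ratio scaling both were called higher in Tibetan libraries, with adjusted p of 0.00111 for ECI2 and 0.00344 for ECHDC2 against Large White and 0.00161 and 0.0144 against Wujin.

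The subunits of the mitochondrial trifunctional protein, which carries the last steps for long chains, stood in another proportion in Tibetan libraries. HADHA had 84.3, 106 and 84.4 FPKM in Tibetan, 71.2, 58.9 and 64.5 FPKM in Wujin and 64.2, 56.9 and 58.3 FPKM in Large White libraries. The relative log2 change against Large White was 1.37 ± 0.13 (adjusted p = 0.00234). HADHB had 37.3, 53.5 and 32.8 FPKM in Tibetan, 11.2, 14.8 and 14.6 FPKM in Wujin and 16.5, 17.0 and 17.4 FPKM in Large White libraries. The relative log2 change against Large White was 1.98 ± 0.18 (adjusted p = 0.000257). HADHA exceeded HADHB 1.98 to 2.57 times in Tibetan libraries, 3.98 to 6.35 times in Wujin libraries and 3.34 to 3.90 times in Large White libraries.

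HADH, the soluble hydroxyacyl-CoA dehydrogenase for shorter chains, had 80.5, 95.5 and 78.6 FPKM in Tibetan, 45.0, 53.5 and 51.0 FPKM in Wujin and 70.3, 61.7 and 61.7 FPKM in Large White libraries. It rose in Tibetan against Large White (relative log2 change 1.16 ± 0.12, adjusted p = 0.0180), which was lost without Large White 2 (adjusted p = 0.0618) and without Large White 3 (adjusted p = 0.0597). ACAA2, the matrix thiolase, was at 18.3, 38.6 and 20.0 FPKM in Tibetan, 14.3, 12.5 and 13.4 FPKM in Wujin and 14.8, 14.8 and 13.9 FPKM in Large White libraries. Tibetan 2 stood apart, and the call against Large White (1.48 ± 0.24, adjusted p = 0.0231) was lost without Large White 1 (adjusted p = 0.0533), Large White 2 (adjusted p = 0.0511) or Large White 3 (adjusted p = 0.0629). ECHDC3, a hydratase-like protein, rose (adjusted p = 0.0213), and lost the call without Tibetan 1 (adjusted p = 0.0734), Tibetan 3 (adjusted p = 0.0748) or Large White 1 (adjusted p = 0.0879). ECHDC1, which destroys a faulty acyl-CoA product, fell (adjusted p = 0.0165) but turned direction after median-ratio scaling and quantile normalization, and lost the call without Tibetan 3 (adjusted p = 0.0576), Large White 2 (adjusted p = 0.0710) or Large White 3 (adjusted p = 0.0633).

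The 3 genes of electron transfer rose together in Tibetan against both other breeds, in comparisons that share the Tibetan libraries. Of all entries, 13.0% were called higher against Large White and 13.8% against Wujin. After median-ratio scaling the 3 were called higher too, with 32.4% and 30.9% of all entries. ETFDH, the dehydrogenase that hands the electrons to ubiquinone, had 46.8, 63.0 and 48.3 FPKM in Tibetan, 13.3, 15.3 and 13.1 FPKM in Wujin and 16.2, 15.6 and 16.1 FPKM in Large White libraries. Tibetan muscle differed from Large White by a relative log2 change of 2.42 ± 0.13 (adjusted p = 4.83e-06). ETFA and ETFB, the subunits of the flavoprotein, had relative log2 changes of 1.57 ± 0.16 (adjusted p = 0.00153) and 2.24 ± 0.24 (adjusted p = 0.000399). ETFB, at 129 to 146 FPKM in Tibetan libraries, was the most abundant breakdown member there. In Wujin 1 it stood at 89.7 FPKM, against 52.7 and 48.3 FPKM in Wujin a and b.

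In the peroxisome, where very long and branched chains are shortened, 1 of the 5 members tested rose and 2 fell in Tibetan against Large White, and after median-ratio scaling 3 were higher and 0 lower. Among all entries 13.0% were called higher and 63.2% lower, and 32.4% and 33.0% after scaling. The member that rose was ACOX2, the oxidase of branched chains and bile acid intermediates, which had 7.32, 6.28 and 8.29 FPKM in Tibetan, 0.807, 1.40 and 1.60 FPKM in Wujin and 1.30, 0.783 and 1.20 FPKM in Large White libraries. It rose against Large White, with a relative log2 change of 2.76 ± 0.18 (adjusted p = 8.76e-06).

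ACOX3, another branched-chain oxidase, had 4.49, 2.66 and 5.94 FPKM in Tibetan, 11.0, 9.58 and 10.3 FPKM in Wujin and 9.21, 5.40 and 6.68 FPKM in Large White libraries. Its fall against Large White (adjusted p = 0.0418) turned direction after median-ratio scaling and quantile normalization and lost the call without Tibetan 1 (adjusted p = 0.0678), Tibetan 2 (adjusted p = 0.142), Wujin a (adjusted p = 0.0563), Wujin b (adjusted p = 0.0561), Large White 1 (adjusted p = 0.158) or Large White 3 (adjusted p = 0.0789). Against Wujin it fell with adjusted p = 0.00272, a call lost after median-ratio scaling (adjusted p = 0.111). ACAA1, the peroxisomal thiolase, had 6.47, 7.11 and 4.77 FPKM in Tibetan, 10.0, 9.31 and 8.56 FPKM in Wujin and 6.83, 7.02 and 6.75 FPKM in Large White libraries. It fell against Wujin (adjusted p = 0.00709) and turned direction after median-ratio scaling and quantile normalization. DECR2, the peroxisomal dienoyl-CoA reductase, overlapped across breeds at 7.39 to 13.6 FPKM. ACAA1 and DECR2 were not called against Large White before scaling and were called higher after median-ratio scaling (adjusted p = 0.00766 and 0.0113). LIPE, hormone-sensitive lipase, which frees fatty acids from stored diacylglycerol, had 10.0, 5.91 and 6.78 FPKM in Tibetan, 5.55, 5.67 and 4.79 FPKM in Wujin and 4.10, 3.57 and 4.17 FPKM in Large White libraries, and rose against Large White (1.54 ± 0.17, adjusted p = 0.00288).

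The 3 enzymes that lead from citrate to palmitate fell in Tibetan against Large White, where 63.2% of all entries tested were called lower. After median-ratio scaling 2 of the 3 were lower, with 33.0% of all entries called lower. ACLY, which cuts citrate to acetyl-CoA, had 2.83, 2.56 and 6.16 FPKM in Tibetan, 4.38, 9.02 and 10.4 FPKM in Wujin and 13.2, 14.2 and 11.9 FPKM in Large White libraries. Against Large White it fell, by a relative log2 change of -0.84 ± 0.33 (adjusted p = 0.00145). ACACA, acetyl-CoA carboxylase, had 0.617, 0.595 and 1.31 FPKM in Tibetan, 1.74, 3.62 and 3.41 FPKM in Wujin and 3.55, 4.74 and 5.14 FPKM in Large White libraries. Relative to all genes it changed by -0.81 ± 0.24 on the log2 scale against Large White (adjusted p = 0.000243). For both genes the Tibetan and Large White libraries were apart, with Tibetan 3 the highest of its breed.

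FASN, the synthase, had 4.90, 3.78 and 12.1 FPKM in Tibetan, 11.1, 21.0 and 22.8 FPKM in Wujin and 16.9, 19.4 and 23.2 FPKM in Large White libraries. Tibetan 3 lay above Wujin 1 but below every Large White library, and the relative log2 change of FASN was -0.75 ± 0.38 against Large White (adjusted p = 0.00483), a call lost after median-ratio scaling (adjusted p = 0.129). Against Wujin, ACACA fell with -0.53 ± 0.24 (adjusted p = 0.00309; 0.0504 after quantile normalization) and FASN with -0.82 ± 0.38 (adjusted p = 0.0102), the call of FASN again lost after median-ratio scaling (adjusted p = 0.105). ACLY fell against Wujin with adjusted p = 0.0352, and lost the call after median-ratio scaling (adjusted p = 0.435) and without Tibetan 1 (adjusted p = 0.108), Tibetan 2 (adjusted p = 0.122), Wujin a (adjusted p = 0.108), Wujin b (adjusted p = 0.123), Large White 1 (adjusted p = 0.0545) or Large White 3 (adjusted p = 0.0504), and stood at an adjusted p of 0.05 without Large White 2.

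The desaturases of polyunsaturated fatty acids fell in Tibetan muscle, while SCD, a delta-9 desaturase, was not called. Of 5 desaturation members tested against Large White, 4 fell, and 4 were lower after median-ratio scaling. Among all entries 63.2% were called lower, and 33.0% after scaling. FADS1, the delta-5 desaturase, had 1.84, 1.88 and 2.71 FPKM in Tibetan, 12.3, 15.0 and 12.5 FPKM in Wujin and 15.4, 17.0 and 16.1 FPKM in Large White libraries. Its relative log2 change of -1.69 ± 0.14 against Large White (adjusted p = 5.67e-07) was the lowest of the 56 members tested, though after median-ratio scaling ACOT7, a thioesterase, was at -1.69 and FADS1 at -1.67. FADS2, the delta-6 desaturase that precedes it in the pathway, had 4.12, 5.12 and 7.66 FPKM in Tibetan, 16.0, 25.0 and 23.1 FPKM in Wujin and 20.3, 26.7 and 27.3 FPKM in Large White libraries. Tibetan muscle differed from Large White by a relative log2 change of -1.21 ± 0.23 (adjusted p = 4.71e-05). The Tibetan libraries lay below all others for both genes. FADS3, of the same family, fell by less, with a relative log2 change of -0.59 ± 0.16 (adjusted p = 4.88e-05).

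ELOVL5, the elongase that works between these desaturases, had 5.04, 5.01 and 6.71 FPKM in Tibetan, 5.68, 16.8 and 13.8 FPKM in Wujin and 18.4, 19.5 and 18.0 FPKM in Large White libraries. It fell against Large White, with a relative log2 change of -0.81 ± 0.31 (adjusted p = 0.00132). Wujin 1 lay within the Tibetan range and far below Wujin a and b. The call of ELOVL5 against Wujin (adjusted p = 0.0307) was lost after median-ratio scaling (adjusted p = 0.467) and without Tibetan 1 (adjusted p = 0.0816), Tibetan 2 (adjusted p = 0.0849), Wujin a (adjusted p = 0.113) or Wujin b (adjusted p = 0.101).

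SCD, which makes monounsaturated fatty acids, had 1.51, 6.17 and 8.55 FPKM in Tibetan, 2.33, 5.26 and 5.60 FPKM in Wujin and 4.20, 6.55 and 6.15 FPKM in Large White libraries, and was called in no comparison (adjusted p = 0.658 for Tibetan against Large White). The Tibetan libraries alone spanned the range of the other breeds. Within a library, the ratio of FADS1 to SCD was 1.22, 0.305 and 0.317 in Tibetan, 5.29, 2.84 and 2.23 in Wujin and 3.66, 2.60 and 2.62 in Large White libraries, so Tibetan libraries held less FADS1 for each unit of SCD than any other library. SCD5, the second delta-9 enzyme, was at 0.240 to 0.451 FPKM in Tibetan and 1.46 to 1.62 FPKM in Large White libraries and fell (adjusted p = 0.000616), a call lost after quantile normalization (adjusted p = 0.183).

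Glycerolipid assembly held members of opposite direction: of 7 tested, 2 rose, 3 fell and 2 were not called in Tibetan against Large White, and after median-ratio scaling 3 were higher and 1 lower. For all entries the shares were 13.0% higher and 63.2% lower, and 32.4% and 33.0% after scaling. LPIN1, a phosphatidate phosphatase that is the main lipin of muscle and also a coactivator of oxidation genes, had 16.7, 7.87 and 9.06 FPKM in Tibetan, 1.19, 1.56 and 1.46 FPKM in Wujin and 2.17, 1.93 and 1.85 FPKM in Large White libraries. Against Large White it rose, by a relative log2 change of 2.74 ± 0.23 (adjusted p = 5.06e-05) and 2.83 ± 0.23 against Wujin (adjusted p = 2.57e-05). Both synthesis members that rose against Large White were lipins. LPIN3 was at 1.63 to 2.65 FPKM in Tibetan and 1.06 to 1.33 FPKM in Large White libraries (1.21 ± 0.16, adjusted p = 0.0320), which was lost without Tibetan 3 (adjusted p = 0.119), Large White 1 (adjusted p = 0.0864) or Large White 2 (adjusted p = 0.0640).

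The acyltransferases of the middle step, AGPAT1, AGPAT4 and AGPAT5, fell in Tibetan against Large White, where 63.2% of all entries were called lower. AGPAT4 had 1.52, 1.12 and 0.953 FPKM in Tibetan, 3.84, 3.81 and 3.75 FPKM in Wujin and 5.74, 5.88 and 6.70 FPKM in Large White libraries. Relative to all genes it changed by -0.93 ± 0.13 on the log2 scale against Large White (adjusted p = 3.08e-06), and the 3 breeds stood in separate ranges. AGPAT1 had a relative log2 change of -0.09 ± 0.13 (adjusted p = 0.000269) and turned direction after median-ratio scaling. AGPAT5, at 7.03 to 10.4 FPKM in Tibetan and 19.0 to 20.8 FPKM in Large White libraries, had -0.37 ± 0.31 (adjusted p = 0.00723), a call lost after median-ratio scaling (adjusted p = 0.410). GPAM, which adds the first acyl chain, had 1.27, 4.93 and 1.85 FPKM in Tibetan, 1.26, 2.43 and 2.66 FPKM in Wujin and 2.56, 3.04 and 2.71 FPKM in Large White libraries, with Tibetan 2 apart and no call. DGAT1, which adds the last chain to make triacylglycerol, had 3.25, 4.21 and 3.42 FPKM in Tibetan, 5.07, 5.56 and 5.41 FPKM in Wujin and 3.42, 3.76 and 4.77 FPKM in Large White libraries. DGAT1 was called higher against Large White after median-ratio scaling (adjusted p = 0.00314) and not before it (adjusted p = 0.505). It fell against Wujin (adjusted p = 0.0146), turned direction after median-ratio scaling and quantile normalization, and lost the call without Tibetan 1 (adjusted p = 0.0503).

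Among the 10 tested genes of uptake and handling, 3 rose, 3 fell and 4 were not called in Tibetan against Large White, and after median-ratio scaling 6 were higher and 2 lower. Beside these stand 13.0% of all entries called higher and 63.2% lower, and 32.4% and 33.0% after scaling. ACSL1, the main muscle acyl-CoA synthetase, had 58.8, 65.3 and 46.5 FPKM in Tibetan, 5.87, 11.1 and 10.5 FPKM in Wujin and 9.13, 8.76 and 8.80 FPKM in Large White libraries. Its relative log2 change of 3.31 ± 0.22 (adjusted p = 6.66e-06) was the highest of the 56 members tested, and against Wujin it was 3.09 ± 0.22 (adjusted p = 8.48e-06). ACSL3, a synthetase of endoplasmic reticulum and droplets, had 7.33, 6.29 and 6.30 FPKM in Tibetan, 6.15, 8.66 and 11.1 FPKM in Wujin and 13.7, 12.2 and 12.9 FPKM in Large White libraries. It fell against Large White (adjusted p = 0.00178), with a relative log2 change of -0.09 ± 0.18 and a direction that turned after median-ratio scaling. ACSL4, which prefers arachidonate, was not called against Large White (adjusted p = 0.130; 0.000281 after median-ratio scaling) and rose against Wujin (1.36 ± 0.22, adjusted p = 0.00930).

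PLIN5, which coats droplets in oxidative tissues, had 19.6, 28.2 and 12.5 FPKM in Tibetan, 13.4, 7.86 and 6.84 FPKM in Wujin and 7.51, 6.90 and 5.78 FPKM in Large White libraries. Tibetan 3 lay below Wujin 1 but above every Large White library. The relative log2 change of PLIN5 was 2.16 ± 0.30 against Large White (adjusted p = 0.00221) and 1.56 ± 0.30 against Wujin (adjusted p = 0.0143), the second call lost without Tibetan 2 (adjusted p = 0.0516) or Wujin b (adjusted p = 0.0545). FABP5, an intracellular fatty-acid carrier, had 121, 124 and 125 FPKM in Tibetan, 51.1, 60.3 and 64.5 FPKM in Wujin and 46.6, 63.1 and 49.2 FPKM in Large White libraries. Tibetan muscle differed from Large White by a relative log2 change of 1.99 ± 0.14 (adjusted p = 4.77e-05). In human, FABP5 has processed copies of near-identical sequence, and reads shared with such copies would make its level uncertain.

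The thioesterases, which cut acyl-CoA back to free acid, held a member of the opposite direction. ACOT7, the cytosolic form best known from brain, had 0.353, 0.587 and 0.371 FPKM in Tibetan, 5.36, 4.47 and 4.44 FPKM in Wujin and 5.02, 6.77 and 5.63 FPKM in Large White libraries. The Tibetan libraries lay far below the others, which overlapped each other, with a relative log2 change of -1.47 ± 0.14 against Large White (adjusted p = 1.06e-06) and -1.45 ± 0.14 against Wujin (adjusted p = 2.60e-06). ACOT8 of peroxisomes, ACOT9 of mitochondria and ACOT6 were called in no comparison before scaling. After median-ratio scaling ACOT8 and ACOT6 were called higher in Tibetan against Large White (adjusted p = 5.40e-05 and 0.00694) and against Wujin (adjusted p = 0.00111 and 0.00825), and ACOT9 against Wujin (adjusted p = 0.00528). ACOT6 belongs to a cluster of similar genes among which reads may be split. FABP7, the carrier of neural tissue, was at most 0.112 FPKM and listed at 0 in Tibetan 2, against 2.03 to 2.52 FPKM in Large White libraries, and fell (adjusted p = 9.56e-06).

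The CPT1 and ACSL families differed in composition by breed, in shares that no rescaling of a library alters. ACSL1 was 81.2, 86.8 and 80.7% of the summed ACSL level in Tibetan, 43.1, 49.6 and 42.5% in Wujin and 35.4, 35.6 and 34.0% in Large White libraries. The 3 breeds were apart. Among 18 comparisons of 6 ratios of members within a library, which were chosen after values were seen, 15 had no overlap between breeds. How often ratios of other gene pairs stand apart was not measured, so this count does not set the members apart. With 3 libraries against 3 the smallest exact two-sided permutation p is 0.1, reached by the 15 without overlap, and 0.12 after Benjamini-Hochberg adjustment over the 18, so none could pass 0.05. LPIN1 over LPIN3 was 9.19, 4.82 and 3.41 in Tibetan, 0.752, 1.18 and 0.742 in Wujin and 2.05, 1.54 and 1.39 in Large White libraries, lowest in Wujin.

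**Figure D4:**
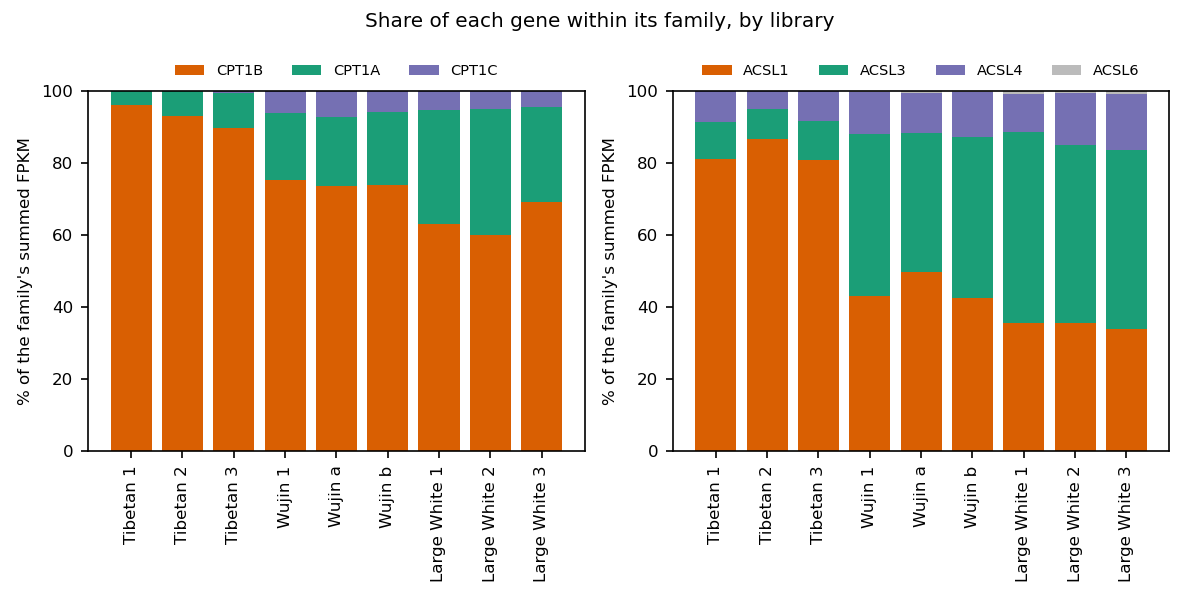
Share of each gene in the summed FPKM of the CPT1 and ACSL families, as stacked bars for each of the 9 libraries. The share of CPT1B is 89.8 to 96.2% in Tibetan libraries against 60.0 to 69.2% in Large White libraries, and that of ACSL1 is 80.7 to 86.8% against 34.0 to 35.6%.

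Set against Wujin, the Tibetan libraries gave counts close to those against Large White, and the comparisons share the Tibetan libraries. Of the 29 breakdown members, 16 rose, 3 fell and 10 were not called, where 13.8% of all entries tested were called higher and 53.9% lower, and the median relative log2 change was 1.10. After median-ratio scaling 26 were higher and 0 lower, with 30.9% of all entries called higher and 30.4% lower. Of the 16 synthesis members, 1 rose, 11 fell and 4 were not called, with a median relative log2 change of -0.34, and after median-ratio scaling 2 were higher and 6 lower. The 6 of 16 lower after scaling were near the 30.4% of all entries called lower. In uptake and handling 4 rose, 2 fell and 4 were not called, and after median-ratio scaling 8 were higher and 2 lower. FADS1, with -1.64 ± 0.14 (adjusted p = 1.48e-06), was the lowest member in this comparison by relative change, while after median-ratio scaling ACOT7 was at -1.66 and FADS1 at -1.62. ETF1 was called higher (adjusted p = 0.0126).

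Few of these genes were called between Wujin and Large White muscle. In Wujin against Large White, 0 of 29 breakdown members rose, 2 fell and 27 were not called, where limma called 1.67% of all entries higher and 4.85% lower; at an unadjusted p under 0.05 the counts were 1 and 7. After median-ratio scaling 0 were higher and 1 lower, with 1.86% of all entries called higher and 1.27% lower. ACADL, whose levels are given above, had a relative log2 change of -0.85 ± 0.17 (adjusted p = 0.0202), called lower after median-ratio scaling too, and lost the call without Wujin a (adjusted p = 0.0621), Large White 1 (adjusted p = 0.0675), Large White 2 (adjusted p = 0.0853) or Large White 3 (adjusted p = 0.0761).

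Of the synthesis members, 0 rose and 1 fell in Wujin against Large White, with 1 and 3 at an unadjusted p under 0.05 and none called by limma in either direction after median-ratio scaling. It was AGPAT4 (adjusted p = 0.0397), which lost the call in leaving out Tibetan 2 (adjusted p = 0.0502), Tibetan 3 (adjusted p = 0.0514), Wujin 1 (adjusted p = 0.0601), Wujin a (adjusted p = 0.0815), Large White 1 (adjusted p = 0.0897), Large White 2 (adjusted p = 0.130) or Large White 3 (adjusted p = 0.156). Among uptake and handling genes FABP7, at 0.745 to 1.31 FPKM in Wujin, was called lower (adjusted p = 0.0346), and none of these genes was called by limma after median-ratio scaling (adjusted p = 0.0800 for FABP7). No library but Tibetan 2 and Wujin b could be left out without loss of the call of FABP7, at adjusted p of 0.0522 without Tibetan 1, 0.0514 without Tibetan 3, 0.0527 without Wujin 1, 0.0729 without Wujin a, 0.0748 without Large White 1, 0.121 without Large White 2 and 0.0996 without Large White 3. CPT1A, at 2.31 to 3.27 FPKM in Wujin against 4.88 to 6.57 FPKM in Large White libraries, did not pass the test (adjusted p = 0.0614).

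The libraries of a breed were not equally alike. Wujin 1 was the farthest of the 3 Wujin libraries from their median in 40 of the 56 tested members (71.4%), against 62.8% of all entries tested, and in 12 of the 16 synthesis members. Its members as a whole lay at a median log2 difference of -0.21 from the mean of the other Wujin libraries, against -0.22 for all entries tested. The breakdown members were at -0.18 and the synthesis members at -0.50. The fibroblast and connective tissue genes summed to 3065 FPKM in Wujin 1, against 4263 and 5617 FPKM in Wujin a and b, and their part in the difference was not tested. In Tibetan 3 the synthesis members lay at a median log2 difference of 0.37 from the other Tibetan libraries and the breakdown members at -0.17, against 0.03 for all entries. FASN, ACLY and ACACA were each at least 2 times as high in Tibetan 3 as in either other Tibetan library.

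Of 41 listed regulators and partners of these pathways, 34 were matched and 33 tested, and in Tibetan against Large White 16 rose, 9 fell and 8 were not called, with a median relative log2 change of 1.08 and, after median-ratio scaling, 23 higher and 2 lower. Over all entries tested, 13.0% were called higher and 63.2% lower, and after that scaling 32.4% and 33.0%. PPARGC1A, a coactivator of mitochondrial genes, had 44.8, 21.5 and 12.9 FPKM in Tibetan, 1.81, 2.22 and 2.24 FPKM in Wujin and 1.68, 1.63 and 2.38 FPKM in Large White libraries. It rose against Large White (3.85 ± 0.36, adjusted p = 4.48e-05). ESRRA, the nuclear receptor it works with, had 39.5, 34.5 and 40.9 FPKM in Tibetan, 6.83, 6.54 and 5.75 FPKM in Wujin and 6.67, 6.28 and 6.11 FPKM in Large White libraries. It too rose (3.19 ± 0.11, adjusted p = 2.22e-07). Both were far above the other breeds in every Tibetan library, though PPARGC1A varied more than ESRRA between them. NRF1, another listed regulator, went the other way. It was at 2.19 to 2.49 FPKM in Tibetan, 5.13 to 5.65 FPKM in Wujin and 6.10 to 6.32 FPKM in Large White libraries. NRF1 fell against Large White (-0.36 ± 0.10, adjusted p = 9.26e-06), also after median-ratio scaling (adjusted p = 0.0232).

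PDK4, the kinase that shuts off pyruvate dehydrogenase when fat is burned, had 54.7, 96.6 and 28.1 FPKM in Tibetan, 0.648, 0.858 and 0.851 FPKM in Wujin and 0.704, 1.36 and 1.17 FPKM in Large White libraries. It rose against Large White (5.49 ± 0.36, adjusted p = 3.48e-06). CRAT, which makes acetyl-carnitine, had 267, 233 and 325 FPKM in Tibetan, 89.1, 65.2 and 64.2 FPKM in Wujin and 53.8, 60.1 and 59.4 FPKM in Large White libraries. Its relative log2 change was 2.99 ± 0.17 (adjusted p = 3.06e-06). SREBF2, a driver of sterol synthesis, had 6.45, 5.75 and 9.72 FPKM in Tibetan, 38.1, 46.3 and 41.5 FPKM in Wujin and 34.2, 40.2 and 40.2 FPKM in Large White libraries. It fell against Wujin (-1.85 ± 0.18, adjusted p = 3.55e-06) and against Large White (-1.49 ± 0.18, adjusted p = 3.93e-06). The Tibetan libraries were apart from all others in these 3 genes, and Wujin and Large White overlapped in PDK4 and SREBF2 but not in CRAT.

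Other partners on the side of synthesis went the other way from SREBF2. MLXIPL, a carbohydrate-responsive activator of lipogenic genes, had 3.41, 4.90 and 2.62 FPKM in Tibetan, 0.329, 0.321 and 0.126 FPKM in Wujin and 0.185, 0.0707 and 0.175 FPKM in Large White libraries. It rose against Large White (2.77 ± 0.19, adjusted p = 1.20e-05). ME1, the cytosolic malic enzyme that supplies NADPH for synthesis, had 4.43, 3.82 and 6.26 FPKM in Tibetan, 0.426, 0.489 and 0.679 FPKM in Wujin and 1.22, 0.693 and 0.945 FPKM in Large White libraries. It rose as well (2.34 ± 0.18, adjusted p = 4.44e-05), as did MLXIP, the relative of MLXIPL (2.72 ± 0.26, adjusted p = 0.000101), and NR1H2, a liver X receptor (1.32 ± 0.14, adjusted p = 0.00633).

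PNPLA2, adipose triglyceride lipase, which acts before LIPE, was called higher in Wujin against Large White, the only one of the 33 partners before scaling. After median-ratio scaling MGLL, monoacylglycerol lipase, was called higher too (adjusted p = 0.0479, against 0.0659 before). PNPLA2 had 140, 164 and 141 FPKM in Tibetan, 32.0, 24.2 and 22.1 FPKM in Wujin and 13.6, 11.7 and 10.5 FPKM in Large White libraries, with a relative log2 change of 1.25 ± 0.16 for Wujin against Large White (adjusted p = 0.0128). ABCD3, a peroxisomal acyl-CoA carrier, and SLC25A20, the carnitine carrier between CPT1 and CPT2, were called lower in that comparison (adjusted p = 0.0436 and 0.0490), and neither was called after median-ratio scaling. SLC25A20 had 13.3, 14.9 and 13.1 FPKM in Tibetan, 10.3, 9.81 and 10.1 FPKM in Wujin and 14.2, 14.0 and 12.9 FPKM in Large White libraries, and was not called in Tibetan against Large White (adjusted p = 0.952; 0.000325 after median-ratio scaling, as higher).

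**Figure D5:**
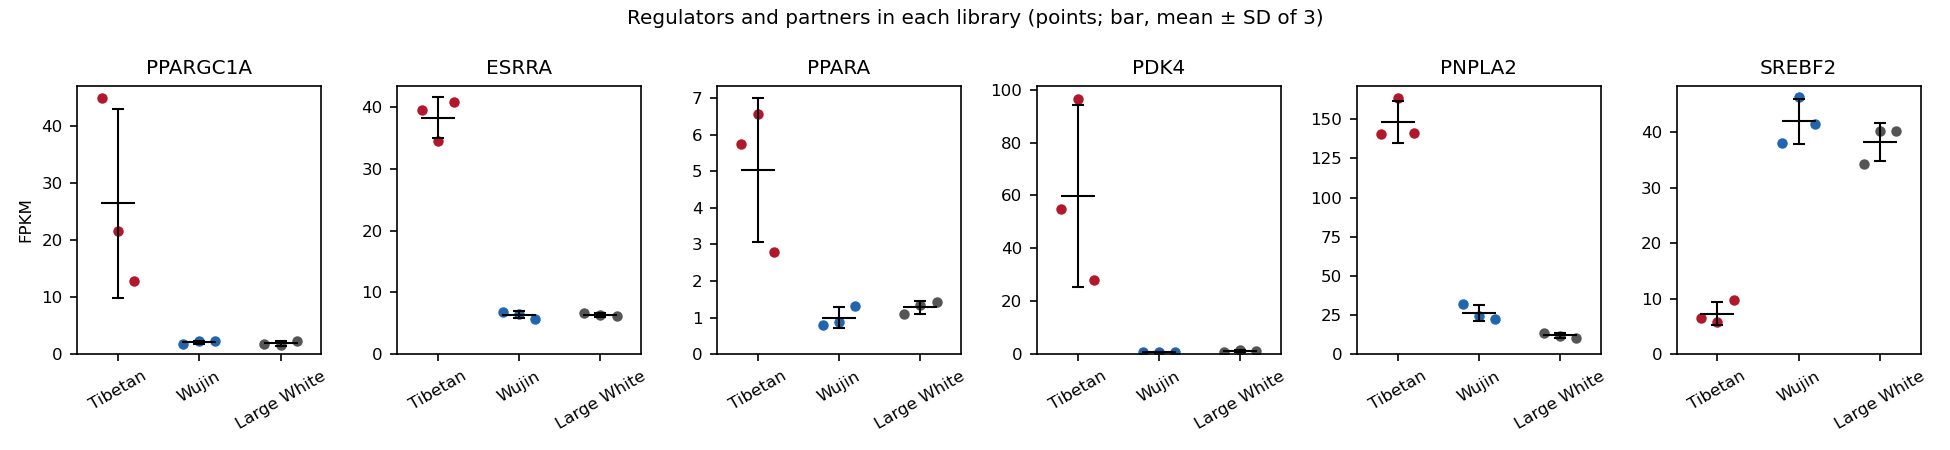
Level in FPKM of 6 regulators and partners, which are no members, in each library by breed, with the mean ± SD of 3; each panel has its own linear axis from 0. PPARGC1A, ESRRA, PPARA, PDK4 and PNPLA2 are highest in Tibetan libraries and SREBF2 is lowest there, at 5.75 to 9.72 FPKM.

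The 9 members below the filter were CPT1C, ELOVL2, ELOVL3, ELOVL4, FADS6, DGAT2L6, ACSL6, FABP6 and PLIN1. ELOVL2, ELOVL3 and ELOVL4, elongases of very long chains, were at most 0.752 FPKM in any library, and ELOVL3 was listed at 0 in all 3 Tibetan libraries. PLIN1, the droplet coat of fat cells, had 0.367, 1.74 and 2.18 FPKM in Tibetan and 0.0473, 1.38 and 0.499 FPKM in Wujin libraries and was listed at 0 in the Large White libraries. FADS6 was at most 0.329 FPKM, ACSL6 at most 0.195 FPKM and FABP6, the bile acid carrier of the gut, at most 0.244 FPKM. DGAT2L6 had a value above 0 in Tibetan 3 alone, 0.101 FPKM. ECI1, ACACB, ELOVL6, DGAT2, LPL, CD36, FABP3, FABP4 and PLIN2 were not matched by symbol and were not analysed here.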

How the data were processed

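RNA of 9 libraries was sequenced, and per the labels' protocols each took 3 ug of total RNA and a TruSeq RNA kit. The authors deposited a table of FPKM per gene and library, per the file headers, and the submitters' processing notes name TopHat. The quantifier, build and annotation are not given in the sources, so no positions or sequences are printed. Symbols were matched by identifier for 56.9% of entries. The 2 columns that share a header were taken as Wujin libraries without a number.

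Testing covered entries averaging 1 FPKM or more (13106 entries, 56 of them members) with limma 3.58.1 in R 4.3.3 on log2(FPKM + 1), a scale that understates the change of low genes. The fit had 3 breed means and a trend on mean level. Adjustment was by Benjamini-Hochberg over all entries tested, with calls at 0.05. The script was tested on simulated data. The settings varied were the pseudocount (0.1 or 5), the filter (none, or 5 FPKM), median-ratio scaling, quantile normalization, only the breeds compared, a replicate block and each library left out. Members, roles and lists were chosen with earlier results of these data known. Members are named by role, with values in every library for 32 key genes, of which 23 were matched, and for the 3 highest and 3 lowest called members of each class. Partners named are PPARGC1A, PDK4, PNPLA2 and those of smallest p. MYL1, GPD1, CFD, PPARA, MLXIPL, MLXIP, ME1, NR1H2 and MGLL were chosen after their values were seen. So were NRF1, APOA1, AHSG, TF, APOA2, CASQ1, CKMT2 and DES, and the members given in every library beyond these. 1 member stands in the counts but is not reported here by name.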

Additional observations from a re-analysis of the deposited data

How the results depend on the processing

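Counts of breakdown and synthesis members called kept within 1.5 times of those given, apart from these. For Tibetan against Large White, breakdown members higher were 25 after median-ratio scaling and 25 after quantile normalization, and lower ones 0 after each and 2 with a mean of at least 5 FPKM, and synthesis members higher were 0 with that filter. For Wujin against Large White, breakdown members lower were 1 with a pseudocount of 0.1, after median-ratio scaling or with only these breeds fitted; synthesis members higher were 1 after quantile normalization, and lower 0 with a pseudocount of 0.1, without a filter, with a mean of at least 5 FPKM, after median-ratio scaling, quantile normalization or only these breeds. For Tibetan against Wujin, breakdown members higher were 26 after median-ratio scaling and lower 0 after either rescaling; synthesis members higher were 0 with a mean of at least 5 FPKM and 2 after either rescaling, and lower 7 with that filter and 6 after either rescaling. Under the filter of 5 FPKM the members lost were no longer tested; elsewhere the cause was not tested. Leaving out each library gave 13 to 16 breakdown members higher and 2 to 4 lower, 1 to 2 synthesis members higher and 11 to 11 lower for Tibetan against Large White; 0 to 0 breakdown higher and 0 to 3 lower, 0 to 0 synthesis higher and 0 to 2 lower for Wujin against Large White; and 16 to 17, 3 to 3, 1 to 1 and 8 to 12 for Tibetan against Wujin.

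Fitted log2 changes that turned direction in Tibetan against Large White were, after median-ratio scaling and then quantile normalization, 0.576 and 0.749 for ACAD11, 0.675 and 0.757 for DGAT1, 0.242 and 0.323 for ECHDC1, 0.033 and 0.119 for CPT1A, 0.699 and 0.658 for ACAD9, 0.691 and 0.645 for ACAA1, 0.203 and 0.211 for ACOX3, 0.794 and 0.564 for DECR2, 0.751 and 0.384 for ECHDC2, 0.879 and 0.444 for ECI2, and after median-ratio scaling alone 0.0146 for ACSL3 and 0.0666 for AGPAT1. In Tibetan against Wujin they were 0.146 and 0.148 for DGAT1, 0.554 and 0.599 for CPT1A, 0.108 and 0.0342 for ACAA1 and 0.664 and 0.524 for ACOT8, and after median-ratio scaling alone 0.659 for DECR2, 0.355 for ACSL3 and 0.577 for ECHDC2. Both rescalings take off the median change of all entries by construction.

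Deviations of Tibetan and Large White libraries of the same number correlated at 0.013, -0.0226 and -0.076 over entries. Those of libraries of different number correlated at -0.1109 to 0.1245. So few pairs cannot exclude shared handling, and the labels give nothing shared but the number. With a replicate block, 15 breakdown members were higher and 4 lower and 2 synthesis members were higher and 11 lower; HADH was no longer called (adjusted p = 0.0512) and ACAD10 was (adjusted p = 0.0457). Wujin columns without numbers allowed no block. The fragments behind each FPKM are unknown, which limits what can be said of members under 1 FPKM.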

Other observations

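Some ratios between members differed between Wujin and Large White libraries although few members were called in level. CPT1B exceeded CPT1A 4.02, 3.84 and 3.64 times in Wujin libraries, against 1.98, 1.72 and 2.63 times in Large White libraries, without overlap. ACADM stood at 1.02, 1.05 and 1.01 times ACADSB in Wujin libraries, against 0.687, 0.822 and 0.775 times in Large White libraries, and at 3.69, 3.29 and 3.28 times in Tibetan libraries. FASN over ACLY was 2.53, 2.33 and 2.18 in Wujin libraries, against 1.28, 1.37 and 1.94 in Large White libraries, while the Tibetan libraries, at 1.73, 1.48 and 1.96, overlapped with Large White. These ratios were chosen after their values were seen, and 3 libraries against 3 cannot give an exact permutation p under 0.1. The share of other gene pairs that stand apart was not measured.

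All members together made up 0.198, 0.221 and 0.172% of the FPKM total in Tibetan, 0.132, 0.136 and 0.134% in Wujin and 0.138, 0.135 and 0.145% in Large White libraries. Breakdown members took 70.1 to 73.8% of the members' sum in Tibetan libraries, 58.7 to 67.0% in Wujin libraries and 57.6 to 62.3% in Large White libraries, and synthesis members 5.05 to 7.82%, 15.7 to 21.5% and 20.8 to 23.1% in the same order of breeds.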
